A study of Homo sapiens with 6 samples.

Results

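Carbonic anhydrases were described in HT29 cells, an established human colon adenocarcinoma line, after removal of single amino acids from the medium. The genes are CA2, CA5B, CA8, CA9, CA11, CA12 and CA13, 7 of the 15 named carbonic anhydrase genes looked up among 60676 listed gene identifiers, and each was found by its symbol in GENCODE release 44. They were selected on values of these same libraries, and they are the family genes with the highest condition mean of scaled counts. The lowest of them by its highest condition mean, CA8, reached 168.5 scaled counts, while CA3 and CA14, just outside, reached 69.8 and 54.0. Per transcript length (TPM, defined where levels are compared), CA3 reached 2.18 in its highest condition, above CA5B at 2.05 and CA8 at 1.61. CA8 is among them only through the untreated libraries. What follows for the members is therefore a description: their p-values are not printed, and where a member is said to pass the threshold, the call describes libraries that also served to select it. Wild-type cells were kept for 48 h in control medium (untreated), in histidine-depleted medium or in tryptophan-depleted medium, and 2 libraries of polyadenylated mRNA were sequenced per condition, 6 in all. The labels do not say whether the libraries of a condition came from separate cultures, so the spread between them may be technical.

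The media differed in more than the missing amino acid. Histidine-free medium was built on RPMI and tryptophan-free medium on DMEM F-12, and the histidine-free recipe held more sodium bicarbonate, the ion these enzymes act on. On which base the control medium of the sequenced cells was made is not given in the sources used here. Full RPMI medium served as the control in the study's proteomics, and whether the sequenced untreated cells had the same medium is not stated there. Between the depletions, the missing amino acid and the base medium cannot be told apart. For each depletion against untreated cells, a part of the base medium depends on that unnamed control. Both depleted media were supplemented with dialyzed fetal bovine serum, and the serum of the control medium is not given in the sources used here. If it was not dialyzed, serum and amino acid removal cannot be told apart against untreated cells.

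Carbonic anhydrases are zinc enzymes that interconvert carbon dioxide and water with bicarbonate and a proton. Family members differ mainly in where they sit. CA9 and CA12 span the plasma membrane with the catalytic domain facing outside, where they help tumour cells handle acid. CA2 and CA13 are cytosolic, CA5B works in mitochondria, and CA8 and CA11 are related proteins that lack the classical catalytic activity. CA9 is a textbook target of the hypoxia-inducible factors (HIF), and CA12 is also known to respond to hypoxia in many tumours.

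The promoters of CA9 and CA12 are shown because these genes carried most of the family's transcript in untreated and tryptophan-depleted cells and because both are linked to HIF. Each line holds the 250 bases before the start site, 5′ to 3′ on the strand of the gene, from RefSeq on GRCh38.p14, at chr9:35673678-35673927 on the plus strand for CA9 and chr15:63381847-63382096 on the minus strand for CA12. Capitals mark the HIF core, searched as ACGTG or GCGTG on both strands.
CA9: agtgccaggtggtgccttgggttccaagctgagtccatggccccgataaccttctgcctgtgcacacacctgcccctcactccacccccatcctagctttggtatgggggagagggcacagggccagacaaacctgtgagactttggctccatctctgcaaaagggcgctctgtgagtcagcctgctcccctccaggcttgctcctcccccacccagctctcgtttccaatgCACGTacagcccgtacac
CA12: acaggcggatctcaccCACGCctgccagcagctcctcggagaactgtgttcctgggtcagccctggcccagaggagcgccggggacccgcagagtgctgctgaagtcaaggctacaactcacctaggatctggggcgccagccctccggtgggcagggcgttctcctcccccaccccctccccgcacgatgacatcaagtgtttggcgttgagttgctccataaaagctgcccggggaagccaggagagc
Each promoter held 1 HIF core. It began at position -18 before the start site in CA9 and at position -234 in CA12, and 43.2% of 35116 promoters of this length held at least 1. The AP-1 letters TGANTCA, also searched on both strands, occurred once in CA9, at -77, and were not found in this window of CA12 (6.57% of promoters held them). The amino acid response letters TGATGNAAN were in neither window and in 3.13% of all promoters. GC content was 60.4% for CA9 and 64.8% for CA12, against a median of 58%. Of the members, 3 had their promoters searched here, and the promoters of the other members were not examined. The third, CA5B, is not shown because its RefSeq start differs from the GENCODE gene start. A match of letters is a description of the sequence only.

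CA12 moved in opposite directions under the depletions, and this was the widest difference in the family. On a scale that puts all libraries together (reads recovered from the deposited tables and divided by size factors over 6 libraries, called scaled counts here), untreated cells held 6218 and 6072 of CA12, cells without histidine 1032 and 1200, and cells without tryptophan 23916 and 23686. The 3 conditions did not overlap. CA12 was 5.48-fold lower without histidine and 3.85-fold higher without tryptophan. On the log2(normalized count + 1) scale, the change was -2.46 ± 0.061 (SE, limma, n = 2 per group) with a 95% interval of -2.58 to -2.33 after histidine depletion, and 1.95 ± 0.047 with an interval of 1.85 to 2.04 after tryptophan depletion. CA12 (ENSG00000074410) is encoded on chromosome 15, from 63321378 to 63381846 on the minus strand, with 11 exons in its canonical transcript. No annotated gene overlapped its exons.

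Set against each other directly, histidine-depleted cells held 21.4-fold less CA12 transcript than tryptophan-depleted cells. The log2 difference was -4.42 ± 0.055 (SE), with an interval of -4.54 to -4.30. By absolute size this was rank 140 among 18276 genes tested, and 0.761% of genes differed more. CA12 also stood at a high level when it did so, as the plot of the direct comparison shows.

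**Figure D1:**
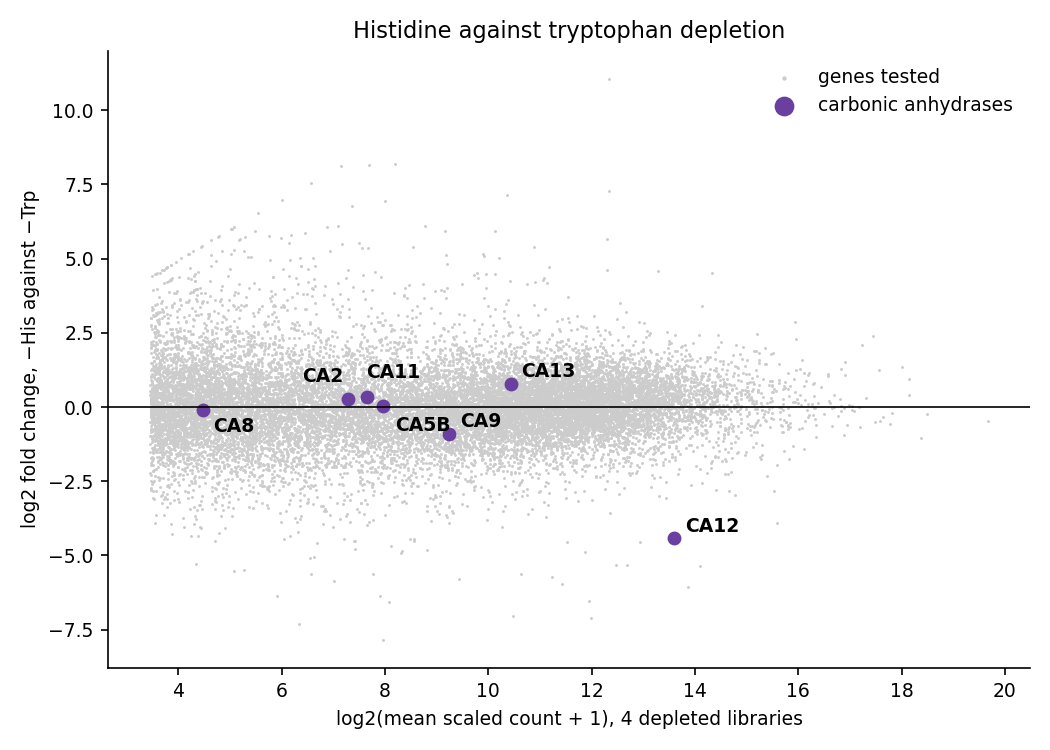
Each grey point is 1 of 18276 genes, with log2(mean scaled count + 1) over the 4 depleted libraries on the horizontal axis and the log2 fold change of histidine against tryptophan depletion on the vertical axis, and purple points are the 7 members. CA12 lies at -4.42, far below the other members, which lie between -0.89 and 0.78.

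CA9, the other membrane enzyme, fell under both depletions. Its scaled counts were 3076 and 2949 in untreated cells, 363 and 490 without histidine, and 815 and 755 without tryptophan. Every depleted library lay below both untreated libraries, and the depleted conditions did not overlap each other. The log2 change was -2.82 ± 0.089 (SE), a 7.08-fold decrease, without histidine and -1.95 ± 0.057, a 3.85-fold decrease, without tryptophan. Histidine-depleted cells were below tryptophan-depleted cells by a log2 difference of -0.89 ± 0.113, with an interval of -1.14 to -0.64. CA9 (ENSG00000107159, chromosome 9, 35673928 to 35681159, plus strand, 11 exons) shares 35.7% of its exon bases with ARHGEF39 on the opposite strand. The library kit marks strand, but whether counting used it is not given in the sources used here, so reads of both genes may not be separated. ARHGEF39 itself stood at 1287 ± 5.54, 503 ± 27.3 and 270 ± 28.0 scaled counts (mean ± SD, n = 2) in untreated, histidine-depleted and tryptophan-depleted cells. It fell in both depletions, as CA9 did, with log2 changes of -1.35 (limma adjusted p = 1.29e-14) without histidine and -2.26 (adjusted p = 9.9e-59) without tryptophan. In the direct comparison it was higher without histidine by 0.90 (adjusted p = 2.14e-06), where CA9 was lower. The part of ARHGEF39 reads in the CA9 values was not tested.

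**Figure D2:**
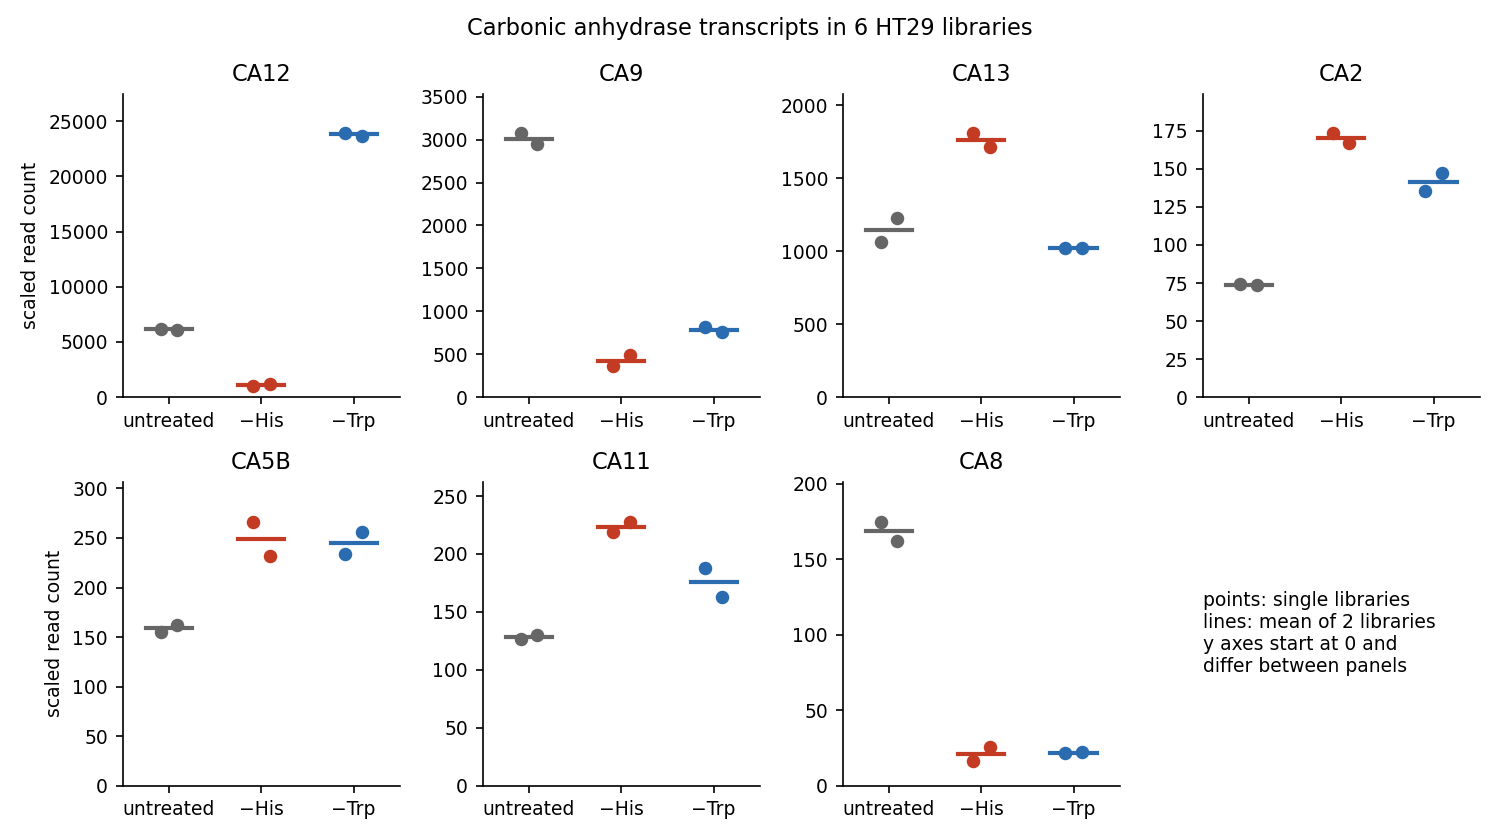
Scaled read counts (vertical axes, starting at 0 and differing between panels) of the 7 members by condition, where each point is a library and each line the mean of 2 libraries. CA12 is lowest without histidine (1032 and 1200) and highest without tryptophan (23916 and 23686), while CA9 and CA8 are highest in untreated cells.

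The cytosolic members CA2 and CA13 changed less from untreated cells than the membrane pair CA9 and CA12. CA13 rose with histidine depletion, from 1062 and 1225 scaled counts in untreated cells to 1808 and 1714. After tryptophan depletion it was at 1022 and 1021, just below both untreated libraries. The log2 change was 0.63 ± 0.068 (SE) without histidine and -0.17 ± 0.064, with an interval of -0.29 to -0.04, without tryptophan. The call of this small decrease was lost under 6 of 13 alternative settings, among them without untreated replicate 2 (-0.06) and without tryptophan-depleted replicate 1 (-0.16) or 2 (-0.17). Between the depletions CA13 differed by 0.78 ± 0.046, higher without histidine. CA13 (ENSG00000185015) lies on chromosome 8 from 85220587 to 85284073, plus strand, with 7 exons, and 4.65% of its exon bases lie under an opposite-strand gene.

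CA2, the widespread and fast cytosolic enzyme, rose in both media. It was at 74.3 and 73.6 scaled counts in untreated cells, 173.5 and 166.9 without histidine and 135.5 and 147.4 without tryptophan. All depleted libraries lay above the untreated ones. The log2 change was 1.20 ± 0.154 (SE) without histidine and 0.92 ± 0.166 without tryptophan. The depleted conditions did not overlap, but the direct difference of 0.27 ± 0.119 did not pass the threshold after adjustment over all genes, with an unadjusted interval of 0.0036 to 0.53. Between 68 and 192 reads stood behind each CA2 value. CA2 (ENSG00000104267) lies on chromosome 8 from 85463968 to 85481493, plus strand, with 7 exons, and no annotated gene overlapped its exons.

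CA5B, the mitochondrial enzyme, rose to a like level in both media. Untreated libraries held 155.2 and 162.1 scaled counts, histidine-depleted libraries 266.5 and 232.0, and tryptophan-depleted libraries 233.7 and 256.4. The log2 changes were 0.65 ± 0.124 (SE) and 0.62 ± 0.123. The depleted conditions overlapped, and their difference of 0.02 ± 0.105 had an interval of -0.21 to 0.25. CA5B (ENSG00000169239, chromosome X, 15688830 to 15788411, plus strand, 8 exons) has a near-identical pseudogene, CA5BP1, and 0.34% of its exon bases overlap that gene, so that its values depend on how reads shared by both copies were assigned. INE2, on the opposite strand, covers 21.99% of its exon bases but had 0 reads in all libraries. CA5BP1 stood at 287.5 and 306.3 scaled counts in untreated cells, 961.3 and 966.6 without histidine, and 236.9 and 275.6 without tryptophan. Its log2 change was 1.71 after histidine depletion (limma adjusted p = 1.73e-15) and -0.22 after tryptophan depletion (adjusted p = 0.0549).

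The related proteins without classical catalytic activity went in opposite directions from each other. CA8, which binds the inositol trisphosphate receptor ITPR1, was at 174.9 and 162.1 scaled counts in untreated cells, 16.3 and 25.4 without histidine, and 21.34 and 21.98 without tryptophan. The depleted levels were 7.88-fold and 7.51-fold below untreated, with log2 differences of -2.98 ± 0.223 and -2.91 ± 0.211 (SE). Because CA8 was among the members only through its untreated level, the selection favoured this direction, and CA8 had fewer reads than CA3 in every depleted library. The depleted conditions overlapped, and the interval of their difference of -0.08 ran from -0.77 to 0.60, with as few as 18 reads in a library. CA11, thought to be secreted, rose from 126.8 and 130.3 scaled counts to 218.6 and 227.9 without histidine and to 187.8 and 163.0 without tryptophan. Its log2 changes were 0.80 ± 0.128 and 0.43 ± 0.140, and the direct difference was 0.35 ± 0.112. The tryptophan and direct values of CA11 passed the threshold with limma but not with DESeq2 (0.43 and 0.34). The tryptophan call was also lost without tryptophan-depleted replicate 1 (0.34), and the direct call without replicate 2 (0.25). CA8 (ENSG00000178538) lies on chromosome 8 from 60185412 to 60281400, minus strand, with 9 exons and no overlapping gene. CA11 (ENSG00000063180) lies on chromosome 19 from 48637946 to 48646187, minus strand, with 9 exons, where 3.80% of its exon bases fall under SEC1P on the other strand.

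**Figure D3:**
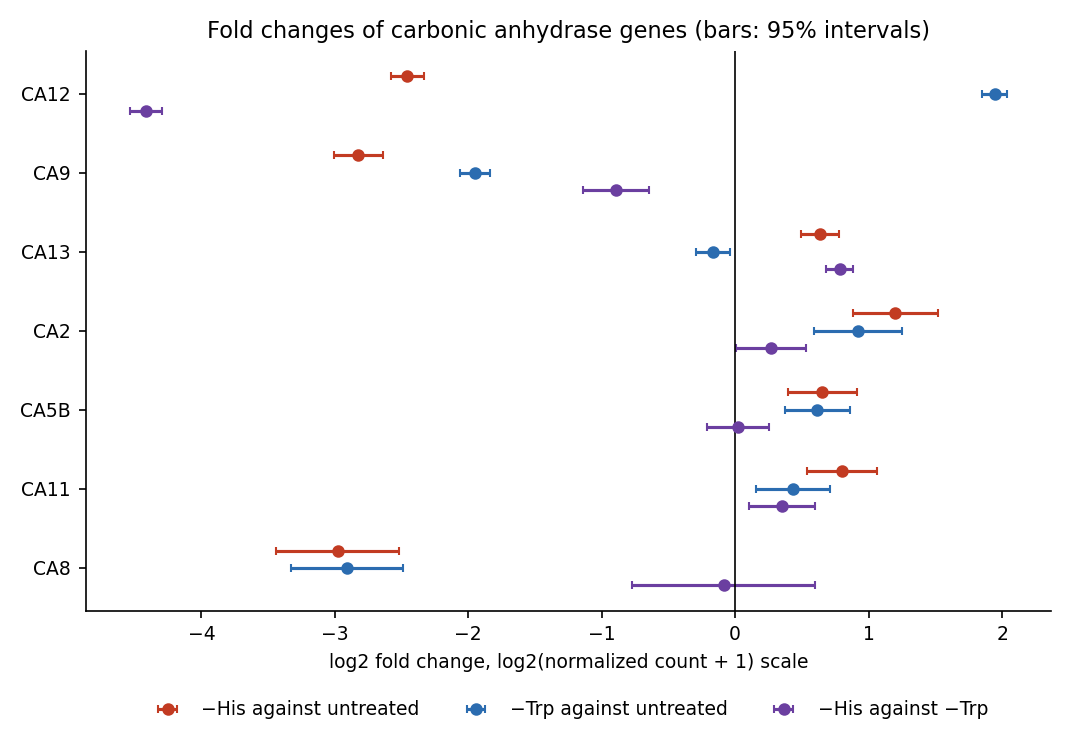
Log2 fold changes (points, horizontal axis) with 95% limma intervals (bars) for the 7 members in the 3 comparisons. The intervals against untreated cells exclude 0 for every member, and CA12 lies at -2.46 without histidine and 1.95 without tryptophan.

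Against untreated cells, 7 of 7 members passed the threshold (adjusted p under 0.05, limma with Benjamini-Hochberg adjustment over all genes tested) in each depletion. After histidine depletion 4 members were higher (CA2, CA5B, CA11 and CA13) and 3 lower (CA8, CA9 and CA12), where 39.1% of 18288 genes tested were called higher and 38.2% lower. After tryptophan depletion 4 were higher (CA2, CA5B, CA11 and CA12) and 3 lower (CA8, CA9 and CA13), where 36.1% of 17960 genes were called higher and 34.8% lower. In the direct comparison CA11 and CA13 were higher and CA9 and CA12 lower without histidine, while 3 members did not pass, and 39.9% and 38.4% of 18276 genes were called higher and lower. Nothing is read from these counts, since the members were selected on these libraries. Both comparisons against untreated cells use the same untreated libraries, so their values are not independent of each other. The members' median log2 fold change was 0.63 without histidine and 0.43 without tryptophan, where the median over all genes tested was 0.01 in both. Since 4 members were higher and 3 lower in each depletion, these medians give no direction for the family.

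Levels between genes were compared per length, as TPM, the reads per exon base of a gene scaled to the same total in every library. CA9 led in untreated cells at 138.9 ± 4.07 TPM (mean ± SD, n = 2), followed by CA12 at 64.7 ± 1.06 and CA13 at 15.1 ± 1.52. The remaining members followed in the order CA11, CA2, CA8 and CA5B, between 4.87 and 1.37 TPM, with no overlap between neighbours. Without histidine the leaders were close: CA13 was at 21.7 ± 0.78 TPM and CA9 at 18.5 ± 3.92, which overlapped, and CA12 at 11.02 ± 1.19. Without tryptophan CA12 led at 242 ± 1.94 TPM, ahead of CA9 at 35.0 ± 1.93 and CA13 at 13.002 ± 0.027. CA12 was then above 98.4% of 35713 genes with reads, compared with 92.4% in untreated cells and 76.4% without histidine.

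The summed family level was 231 ± 3.46 TPM in untreated cells, 69.05 ± 4.37 without histidine and 307 ± 4.44 without tryptophan. CA9 made up 60.1% of it in untreated cells, 26.6% without histidine and 11.4% without tryptophan, and CA12 made up 28.0%, 15.9% and 78.9%. The ratio of CA12 to CA9 was 0.47 ± 0.0060 in untreated cells, 0.60 ± 0.064 without histidine and 6.93 ± 0.33 without tryptophan. CA9 and CA12 together held 88.1%, 42.5% and 90.3% of the family level, and the cytosolic members CA2 and CA13 held 7.70%, 40.1% and 5.87%. The summed TPM of CA2 and CA13 was 17.8 ± 1.51, 27.6 ± 0.93 and 18.0 ± 0.27. With the other cytosolic genes CA1, CA3 and CA7 added, the cytosolic sum was 18.3 ± 1.54, 28.8 ± 1.01 and 20.3 ± 0.10 TPM, or 7.91%, 41.9% and 6.62% of the family level. In bulk RNA, fewer cells that carry a transcript and less transcript per cell cannot be told apart.

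**Figure D4:**
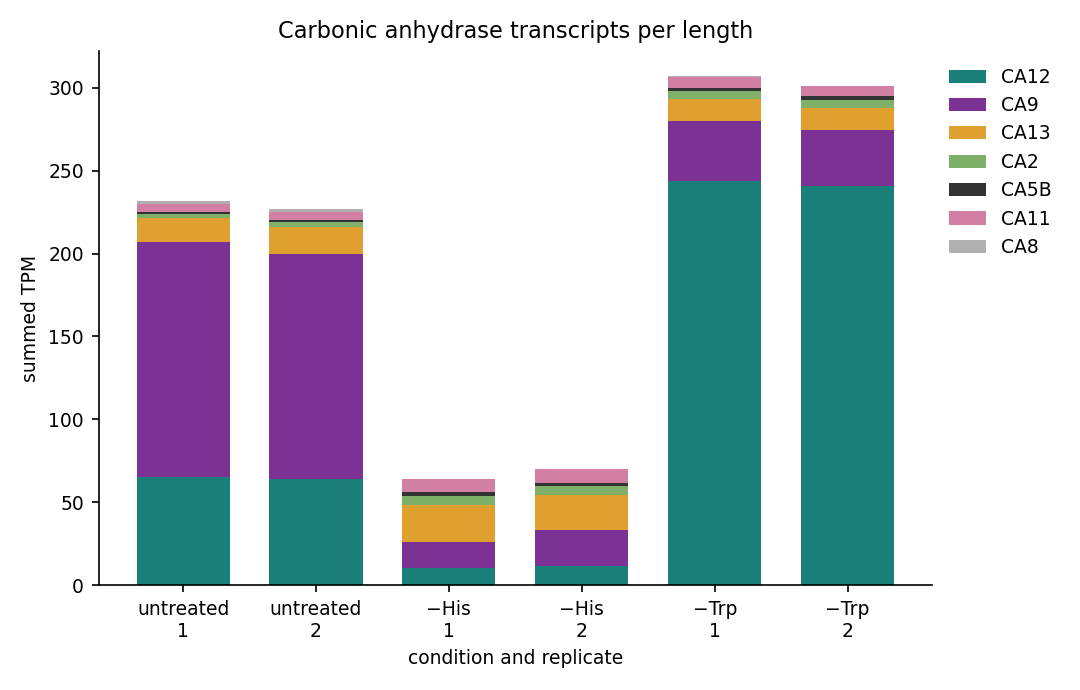
Stacked TPM of the 7 members (vertical axis) in each of the 6 libraries, grouped by condition and replicate. CA9 is the tallest segment in untreated libraries, and CA12 in tryptophan-depleted libraries, at 241 and 244 TPM.

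The other family genes had lower condition maxima in scaled counts. CA3, a cytosolic form of muscle, was at 13.1 and 14.9 scaled counts in untreated cells, 39.8 and 38.7 without histidine and 73.6 and 65.9 without tryptophan, with log2 changes of 1.43 (limma adjusted p = 0.000166) and 2.23 (adjusted p = 3.51e-12). CA14, a further membrane enzyme, was at 51.4 and 56.7 in untreated cells, 21.7 and 30.5 without histidine and 35.2 and 25.6 without tryptophan. Its changes were -1.03 (adjusted p = 0.00093) and -0.83 (adjusted p = 0.00245), and the second was lost with DESeq2 (-0.85, adjusted p = 0.0634) and without tryptophan-depleted replicate 2 (limma, -0.62, adjusted p = 0.0607). CA1 had 1 to 8 reads, CA4 at most 5, CA5A at most 2 and CA6 at most 1 read in a library. CA7 and CA10 had 0 reads in all 6 libraries, which allows up to 3 reads per library by counting error alone.

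Histidine and tryptophan codons in the members were counted in the coding sequence of the canonical transcripts. Histidine codons made up 4.24% of CA12 (15 of 354), 4.62% of CA2, 4.58% of CA13 and 4.10% of CA5B, compared with a median of 2.43% over 19749 protein-coding genes. CA11, CA8 and CA9 had 3.35%, 3.10% and 2.61%. Tryptophan codons ranged from 1.31% in CA9 to 2.84% in CA5B, where the median was 1.13%. All members were above both medians, and CA9 and CA12 were the members with the lowest share of tryptophan codons.

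The genes most like CA12 in their pair of log2 fold changes against untreated cells were sought among 12501 genes that reached a group mean of 100 normalized counts in each table. Euclidean distance in that pair was the measure, over the 2 comparisons and 6 libraries. The nearest was BEST1, an anion channel of the retinal epithelium, at 124.6 and 134.3 scaled counts in untreated cells, 14.5 and 26.5 without histidine, and 542.1 and 520.1 without tryptophan (distance 0.21). It was followed by SELENBP1, a selenium-binding protein of differentiated colon (0.51), FAM131B (0.57) and PLA2G4F, a cytosolic phospholipase (0.64). SELENBP1 changed by -2.09 and 1.59 and FAM131B by -1.89 and 1.92, in the order histidine, tryptophan.

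Bicarbonate made or used by the enzymes crosses membranes through transporters, and acid leaves through proton and lactate exporters. Lists of these genes were described in the same fits by their counts and medians. Each count stands against the share of all genes tested, of which 39.1% were called higher and 38.2% lower without histidine, 36.1% and 34.8% without tryptophan, and 39.9% and 38.4% in the direct comparison. Of 15 bicarbonate transporters, 9 were tested after histidine depletion, of which 3 rose and 6 fell (median log2 fold change -0.51), and 8 after tryptophan depletion, of which 3 rose and 4 fell (median -0.04). CFTR, the chloride and bicarbonate channel, fell from 5997 and 6307 scaled counts to 461 and 572 without histidine (log2 -3.57, limma adjusted p = 1.93e-22) and to 1925 and 1843 without tryptophan (-1.71, adjusted p = 1.95e-68). SLC4A4, a sodium bicarbonate cotransporter, fell by 1.46 (adjusted p = 1.16e-10) and by 2.01 (adjusted p = 6.15e-29) on the log2 scale. SLC26A9, an anion transporter of epithelia, fell by 2.18 (adjusted p = 1.33e-09) without histidine and by 0.47 (adjusted p = 0.00453) without tryptophan, a call lost without untreated replicate 2 (-0.28, limma adjusted p = 0.161) and with DESeq2 (-0.50, adjusted p = 0.0665). In the direct comparison 4 of 9 were higher and 5 lower without histidine (median -0.63), and CFTR differed by -1.87 (adjusted p = 8.81e-10). SLC4A4, called higher there, lost the call with DESeq2 (0.53, adjusted p = 0.0697).

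Of 14 proton and lactate exporters, 9 were tested. Without histidine 6 rose and 2 fell (median 0.39), and without tryptophan 5 rose and 2 fell (median 0.68). SLC9A2, a sodium/proton exchanger, rose from 226.3 and 287.4 scaled counts to 1461 and 1464 without histidine (log2 2.52, limma adjusted p = 9.47e-18) and to 440.7 and 427.6 without tryptophan (0.76, adjusted p = 1.31e-11). SLC16A3, a lactate exporter of glycolytic cells, rose by 0.81 (adjusted p = 6.0e-12) and 1.32 (adjusted p = 1.87e-51), and SLC9A5, another exchanger, by 1.58 and 1.28. SLC16A7, a lactate transporter, rose by 2.08 (adjusted p = 9.85e-13) without histidine and had a log2 value of 0.09 (adjusted p = 0.705) without tryptophan. SLC16A8 rose by 1.37 without tryptophan (adjusted p = 5.33e-13) and was at 0.35 without histidine (adjusted p = 0.107). Directly compared, 4 of the 9 were higher and 5 lower without histidine (median -0.53). SLC9A5, called higher there, lost the call with DESeq2 (0.27, adjusted p = 0.0937). It also did so without histidine-depleted replicate 1 (0.21) or tryptophan-depleted replicate 1 (0.26).

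A list of enzymes that consume bicarbonate was also described. Of 9 carboxylases and related enzymes, 8 were tested without histidine, of which 6 fell and 0 rose (median -0.39), and 9 without tryptophan, of which 7 fell and 0 rose (median -0.38), where 38.2% and 34.8% of all genes tested were called lower. PCCB fell by 0.82 (limma adjusted p = 1.05e-12), ACACA by 0.73 (adjusted p = 2.7e-12) and CAD by 0.47 (adjusted p = 8.41e-09) without histidine, and MCCC2 by 0.94 (adjusted p = 1.97e-41), ACACB by 0.50 (adjusted p = 0.000136) and PC by 0.43 (adjusted p = 1.34e-11) without tryptophan. After tryptophan depletion the call of CAD as lower was lost without tryptophan-depleted replicate 1 (-0.16). ACACA, at -0.05 in that comparison (limma adjusted p = 0.364), passed as lower with quantile normalization (-0.10, limma adjusted p = 0.00291) and without untreated replicate 1 (-0.08). ACACB without histidine, at 0.13 (adjusted p = 0.33), passed as higher with quantile normalization (0.32, limma adjusted p = 0.0473). PC without histidine, at -0.12 (limma adjusted p = 0.0813), passed as lower with the replicate block, with all 6 libraries in 1 fit, with edgeR, without untreated replicate 1 and when histidine-depleted replicate 2 was left out (adjusted p = 0.0373 to 0.0459), which adds 1 gene to those that fell. The carboxylases ACACA and PC add a carboxyl group, from bicarbonate, to precursors of fatty acids and the citric acid cycle, while CAD uses bicarbonate to make pyrimidines. Between the depletions 3 enzymes of the list were higher and 4 lower without histidine (median -0.15).

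CA9 and CA12 were also set beside a list of 23 HIF pathway genes and common HIF targets, which holds no carbonic anhydrase. Without histidine 14 rose, 5 fell and 4 did not pass (median 0.47), and without tryptophan 12 rose, 4 fell and 7 did not pass (median 0.17), beside 39.1% and 36.1% of all genes tested called higher and 38.2% and 34.8% called lower. ADM, the vasodilator adrenomedullin, rose by 3.83 (limma adjusted p = 4.8e-23) without histidine and by 1.28 (adjusted p = 1.27e-23) without tryptophan. BNIP3, which marks mitochondria for removal, rose by 1.98 and by 0.34, and EPAS1, the HIF-2 alpha subunit, by 1.18 and 1.38. NDRG1 rose by 0.43 without histidine and by 2.10 without tryptophan, and VEGFA, which induces vessels, was at 0.02 (adjusted p = 0.738) and rose by 1.67 (adjusted p = 2.14e-66). HIF1A rose by 1.03 and by 0.17, and EGLN3, a HIF prolyl hydroxylase, rose by 0.94 and 0.17 (limma adjusted p = 1.06e-10 and 0.0402). After tryptophan depletion the call of BNIP3 was lost when any 1 of the 4 libraries was left out (0.28 to 0.39), with the replicate block, with no filter and with DESeq2. That of EGLN3 was lost without untreated replicate 1 (0.07) or tryptophan-depleted replicate 1 (0.21) or 2 (0.14), with no filter, with edgeR and with DESeq2, and that of HIF1A without tryptophan-depleted replicate 2 (0.14). VEGFA without histidine passed as higher without untreated replicate 1 (0.10) and as lower with quantile normalization (-0.23). Other targets on the list stood lower. PDK1 was at 1537 and 1498 scaled counts in untreated cells and 707 and 747 without histidine. LDHA was at 39017 and 39789 in untreated cells and 28770 and 29170 without tryptophan. PDK1 and LDHA are named here after their values were seen. In the direct comparison 14 of the 23 were higher and 7 lower without histidine (median 0.34), and both CA9 and CA12 were lower.

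**Figure D5:**
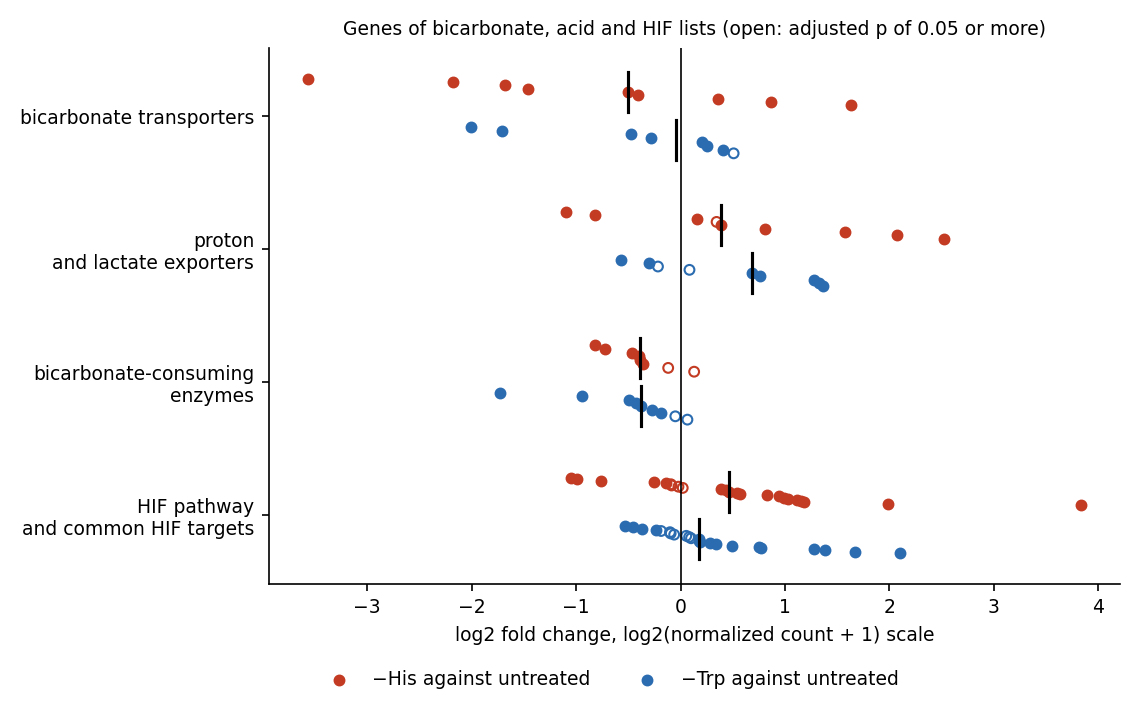
Log2 fold changes (horizontal axis) of tested genes in 4 lists (vertical axis) after histidine (red) and tryptophan (blue) depletion, where open points did not pass the threshold and black lines are list medians. The bicarbonate-consuming enzymes have medians of -0.39 and -0.38, and CFTR is the leftmost point at -3.57.

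CA8 was set beside the inositol trisphosphate receptor genes, of which ITPR1 encodes the one it is known to bind. ITPR1 rose from 106.0 and 123.3 scaled counts to 306.3 and 293.0 without histidine (log2 1.39, limma adjusted p = 5.0e-10) and to 470.6 and 492.6 without tryptophan (2.06, adjusted p = 8.09e-37), while CA8 was lower in both media. ITPR3 was at -0.39 (adjusted p = 3.76e-07) and 0.22 (adjusted p = 5.82e-05, lost without tryptophan-depleted replicate 1, at 0.21), and ITPR2 at 0.30 and 0.01.

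Of 8 targets of ATF4, the transcription factor of the amino acid response, 3 rose and 3 fell without histidine (median -0.09), and 8 rose and 0 fell without tryptophan (median 1.02). The counts without histidine are near the shares of all genes tested, 39.1% higher and 38.2% lower, and without tryptophan those shares were 36.1% and 34.8%. DDIT3 rose by 0.69 and 1.99, ATF3 by 1.49 and 0.98, and CHAC1 by 0.27 and 1.56. VLDLR was at -0.08 (limma adjusted p = 0.484) without histidine and rose by 1.84 without tryptophan. TRIB3 fell by 0.76 without histidine and rose by 1.06 without tryptophan. Of 12 colonocyte differentiation genes, which include CA1 and CA4, 3 were tested without histidine (1 rose and 2 fell, median -2.95) and 4 without tryptophan (2 rose and 2 fell, median -0.71). These medians rest on few genes that went both ways, and over the 3 comparisons the list's median moved in 21 of 39 alternative fits and its number past the threshold in 5, so no direction is given for the list. KRT20, a keratin of differentiated colon, rose by 1.74 and 2.38. The genes that fell were GUCA2A, the precursor of guanylin, by 2.95 and 3.98, and FABP1, a fatty acid-binding protein, which went from 30.6 and 24.9 scaled counts to 0 in both libraries without histidine and to 2.13 and 1.83 without tryptophan. GUCA2A and FABP1 are named here after their values were seen.

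The reads recovered from the deposited values summed to between 46390819 and 64388876 per library over all listed gene identifiers. These sums are not the sequencing depth, and each is above the average number of paired reads per sample that the study reports. Markers of intestinal epithelium summed to between 7056 and 7487 TPM in untreated, 9319 and 9831 in histidine-depleted and 10647 and 10742 in tryptophan-depleted libraries, with 9 of 10 above 1 TPM in some library. KRT18 alone reached 3712 TPM, and the markers did not move together. Without histidine 5 of the 10 rose and 5 fell, where 39.1% of all genes tested were called higher and 38.2% lower. CDX2, an intestinal transcription factor, fell by 1.37, and CDX1 went from 21.9 and 18.9 scaled counts to 0 in both libraries. Among those that rose were KRT19, by 1.55, and KRT8, by 0.78. These genes were all named after their values were seen. Without tryptophan 6 rose, 2 fell and 2 did not pass, where 36.1% of all genes tested were called higher and 34.8% lower. Leukocyte markers summed to at most 1.63 TPM, stromal and endothelial ones to at most 1.11 and erythroid ones to at most 0.786. The mast cell markers KIT, CPA3 and TPSAB1 were at 0 in all libraries, and the list summed to at most 0.132 TPM. Single epithelial markers moved with the groups, and their part in the results was not tested.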

How the data were processed

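The data are RNA-seq of HT29 cells after 48 h in control, histidine-depleted or tryptophan-depleted medium, with 2 libraries per condition. The authors aligned reads with STAR 2.7.10a to GRCh38, counted them with HTSeq 2.0.5, divided the counts by DESeq2 size factors and deposited them as normalized counts (a signal of size-factor-scaled reads), with 1 table for each depletion that repeats the untreated libraries. The tables were normalized separately. Whether molecular identifiers or strand were used in counting is not given in the sources used here.

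All values were whole multiples of a step per library (100%, tolerance 0.01 reads), which gave back whole reads. For levels across conditions, and for histidine against tryptophan depletion, these were scaled over all 6 libraries by median-of-ratios size factors, which differ from the deposited scaling by up to 2.67%. Comparisons with untreated cells used the deposited values. Tests were two-sided and used limma 3.58.1 (R 4.3.3) with a trended, non-robust prior on log2(value + 1), kept genes whose mean reached 10, and were Benjamini-Hochberg adjusted over all genes tested at a threshold of 0.05. A fold on this scale understates the change of low genes. p-values rest only on the spread between these libraries, which the prior partly borrows across genes, so they do not measure the spread of a single gene alone. That spread differed by condition. Over genes with at least 20 reads in the pair, chi-square per degree of freedom was 8.77 untreated, 4.03 without histidine and 1.85 without tryptophan. Levels per length used the exon bases of each gene. Of 60676 identifiers, 60357 were found in GENCODE 44. Promoters came from RefSeq. The limma code was tested on simulated counts.

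The members and lists were chosen with earlier results of these data known. Named genes were the members, the other family genes with their reads, up to 3 genes per list and depletion with the largest change past the threshold and 100 normalized counts or more on average in the group with more, the 5 genes nearest to CA12 (1 of which is not reported here), HIF1A and EGLN3. CA5BP1 and ARHGEF39 were added because their reads can be confused with those of members. The settings varied were the pseudocount (0.5 and 8), the filter (none, or a mean of 50), quantile normalization, a joint fit of the 6 libraries, the replicate block, edgeR 4.0.16 and DESeq2 1.42.0 on recovered reads, each library left out, and, for levels, the longest transcript. Tables were made with pandas 2.3.3 and numpy 2.4.6 in Python 3.11.15, and plots with matplotlib 3.10.9.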

Additional observations from a re-analysis of the deposited data

Results flagged for a closer look

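In the direct comparison of histidine-depleted with tryptophan-depleted libraries, 4 of 7 members passed the threshold (limma, n = 2 per group). Of 18276 genes tested, 39.9% were called higher and 38.4% lower without histidine, and nothing is read from the count of members. The log2 difference was -4.42 for CA12, where the libraries moved in opposite directions from the untreated ones, and -0.89 for CA9, which was lower than untreated in both media. It was 0.78 for CA13 and 0.35 for CA11, both higher without histidine. The call of CA11 was lost with DESeq2 (0.34) and without tryptophan-depleted replicate 2 (0.25). The members were selected on these libraries, so these values describe them and carry no p-value. The base medium differed with the amino acid removed, and its part in these differences cannot be told apart from that of the amino acid.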

How the results depend on the processing

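Directions and calls of the members were computed under 13 alternatives per comparison, which gave 272 values, of which 258 kept direction and side of the threshold, 10 lost the call, 1 gained it and 3 changed sign. Those 3 were direct differences near 0 that had not passed: CA5B, which ranged from -0.077 to 0.122 with each library left out in turn and was negative when the first library of either depletion was missing (-0.077 and -0.044), and CA8, which ranged from -0.392 to 0.223. After histidine depletion 7 of 7 members passed under all 13 alternatives. After tryptophan depletion 5 to 7 passed, and in the direct comparison 3 to 5. CA12 ranged from -2.56 to -2.35 without histidine, 1.87 to 1.96 without tryptophan and -4.53 to -4.31 between them. For CA13 after tryptophan depletion, the call was lost with no filter (-0.17), quantile normalization (-0.07), DESeq2 (-0.18), without untreated replicate 2 (-0.06) and without tryptophan-depleted replicate 1 (-0.16) or 2 (-0.17). For CA11 it was lost after tryptophan depletion with DESeq2 (0.43) and without tryptophan-depleted replicate 1 (0.34), and in the direct comparison with DESeq2 (0.34) and without tryptophan-depleted replicate 2 (0.25). The direct difference of CA2 passed with quantile normalization (0.35). CA8 could not be tested in the direct comparison at a mean of at least 50. Per-length levels on the longest transcript were 0.744 to 1.06 times those on all exon bases, and the order of the members was the same in each condition. Same-numbered libraries showed little shared deviation, with correlations of 0.05, 0.0074 and -0.034 over genes. Much of the deviation of single genes can be counting noise, so this cannot decide whether the samples were paired. With a replicate block, 7, 7 and 4 members passed in the 3 comparisons. With 2 libraries per group, changes of genes with few reads, such as CA8 with as few as 18, have wide intervals. Among other genes, signs changed, for values that had not passed, for VEGFA after histidine depletion with quantile normalization (-0.23) and with a library left out (-0.061 to 0.103), for VLDLR with quantile normalization (0.14), for ACACB with a library left out (-0.040 to 0.30), for ITPR2 after tryptophan depletion with edgeR (-0.00031), DESeq2 (-0.0050) and with a library left out (-0.039 to 0.050), and for the direct difference of CA14 with a library left out (-0.453 to 0.021). Over the 3 comparisons, the median of the bicarbonate-consuming enzymes moved in 16 of 39 alternative fits. That of the HIF list moved in 13 of 39. The cause of the lost calls was not tested.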
